A study of Mus musculus with 3 samples.

Results

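The translation initiation and elongation factors of the mouse were taken as the genes with a protein-coding transcript whose symbol begins with Eif followed by a digit from 1 to 6, or with Eef followed by 1 or 2. The eIF2 kinase genes (Eif2ak), Eif2s3y and symbols that contain "-ps" were left out. The rule found 63 of the 21901 genes with a protein-coding transcript, out of 55536 genes in the tables. They comprise 44 initiation factor genes, 10 genes of the elongation machinery, among them the eEF2 kinase gene Eef2k, and 9 genes for proteins that bind or methylate these factors.

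RNA came from the cytosol of macrophages grown from C57BL/6J bone marrow and was sequenced as total RNA after removal of ribosomal RNA. The study has 1 group here, biological replicates 1, 2 and 3, taken 0 minutes into a treatment with lipid A (100 ng/ml), which is the portion of lipopolysaccharide that TLR4 recognises. Each library started from 1 µg of RNA. Every library carries the same donor label, the age and sex of the mice were not collected, and nothing separates cultures from animals, so the SDs below reflect variation among 3 samples that may be technical. With 1 group there is no treated or untreated partner to compare with, and the smallest p of an exact two-sided sign-flip test on 3 libraries is 0.25, so the values are described without tests.

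Translation of most cellular mRNAs begins when eIF4F binds the 5′ cap and the 43S complex, made of the small ribosomal subunit, eIF1, eIF1A, eIF3, eIF5 and eIF2 with the initiator tRNA, scans to the start codon. eIF5B then joins the large subunit, after which eEF1A delivers aminoacyl-tRNAs, eEF1B recharges eEF1A with GTP, and eEF2 moves the ribosome along the mRNA. In macrophages the cap-binding and eIF2 steps are known points at which mTOR and stress kinases adjust protein synthesis.

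Counts assigned to genes totalled 26318761 in replicate 1, 41897257 in replicate 2 and 56290298 in replicate 3. A count of 0 allowed up to 3 counts, or 0.0533 to 0.114 CPM (counts scaled to library size). Genes with a protein-coding transcript held 26.2%, 21.96% and 21.7% of all TPM (transcript abundance corrected for length and scaled to one fixed total) in replicates 1, 2 and 3. All 8 macrophage markers were at a TPM of at least 1 in every library, with summed TPM of 5823 to 8287. None of 5 neutrophil, 3 T cell, 3 B cell, 3 erythroid or 3 fibroblast markers was at that level in every library. Their summed TPM lay between 0.63 and 0.95 for neutrophil markers and was at most 0.11 for each of the other 4 lists, and the 3 erythroid markers had 0 counts.

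Some of these mRNAs are known from general knowledge to begin with a 5′ terminal oligopyrimidine (TOP) tract, a C followed by a run of pyrimidines, through which mTOR and the RNA-binding protein LARP1 control their translation. The members on that list are Eef1a1, Eef1b2, Eef1d, Eef1g, Eef2, Eif3e, Eif3f, Eif3h and Eif4b. RefSeq start windows on GRCm38.p6 were available for 47 of the 63 members. A C followed by at least 4 pyrimidines (C or T), read on the coding strand, began exactly at the annotated start in 2 of the 47 members, against 2.71% of 16519 genes with a protein-coding transcript in the same table. With a shift of up to 5 bases allowed, 10 of the 47 members (21.3%) held such a run, against 21.8% of all genes in the table, which is near the background. With at least 7 pyrimidines required after the C, 6 of the 47 members (12.8%) held a run within 5 bases, against 5.24% of genes. At the exact start it was 2 of the 47 (4.26%), against 0.854% of genes, so the place of the members relative to the background depends on the run required. The windows below run from 20 bases before the annotated start to 20 bases from it, in lower case, with the whole unbroken run of pyrimidines that holds the match nearest to the start in capitals. They are shown because they contrast the members with a run at the start, the members with a run beside it, and TOP-list members whose annotated start has none. The first lies at chr7:108934395-108934434 on the plus strand, the second at chrX:94212632-94212671 on the minus strand, the third at chr9:78481705-78481744 on the minus strand and the fourth at chr15:79075203-79075242 on the plus strand. Eef2, Eef1b2 and Eif4b lie at chr10:81176611-81176650, chr1:63176811-63176850 and chr15:102073753-102073792, all on the plus strand.
Eif3f: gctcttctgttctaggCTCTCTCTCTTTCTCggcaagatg
Eif2s3x: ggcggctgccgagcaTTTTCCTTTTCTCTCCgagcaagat
Eef1a1: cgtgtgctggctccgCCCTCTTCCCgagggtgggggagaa
Eif3l: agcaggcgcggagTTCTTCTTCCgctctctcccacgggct
Eef2: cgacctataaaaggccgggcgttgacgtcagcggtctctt
Eef1b2: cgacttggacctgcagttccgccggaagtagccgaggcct
Eif4b: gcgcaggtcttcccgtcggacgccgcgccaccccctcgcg

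In Eif3f the pyrimidines are unbroken over 15 bases and in Eif2s3x over 16 bases, in both cases across the annotated first base, which is a C. The runs of Eef1a1 and Eif3l are 10 bases long each and also cross the annotated first base. Eef2, Eef1b2 and Eif4b have no such run beginning within 5 bases of the annotated start, which says only that none begins that close. Farther from the start, the printed windows of Eef2 and Eif4b do hold a C followed by at least 4 pyrimidines, left in lower case. Whether the annotated starts are the ones used in these cells was not tested. The other members with a run within 5 bases were Eif1ad, Eif2b2, Eif2b5, Eif3b, Eif4enif1 and Eif4g1.

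Nearly the whole initiation and elongation machinery was present as cytosolic mRNA. Of the 63 members, 60 reached a TPM of at least 1 in all 3 libraries, against 41.2% of all genes with a protein-coding transcript. More than 100 counts in every library were held by 59 members, a count given for the members only. The members together took 1.26% (95% Wilson interval 1.256 to 1.264), 1.22% (1.216 to 1.223) and 1.04% (1.041 to 1.046) of all gene counts in replicates 1, 2 and 3, a mean of 1.17 ± 0.115% (SD, n = 3). Eef1a1 alone held 37.5%, 36.7% and 35.0% of those member counts. Without it the share was 0.746%. Levels of the detected members ranged from 1.497 TPM for Eif5a2 to 1466 TPM for Eef1a1, with 4 members at a mean TPM of at least 100, 36 between 10 and 100, 20 between 1 and 10, and 3 below 1. Among the detected members, 42 of 60 lay above 7.19, the median mean TPM of the 9017 detected genes with a protein-coding transcript. The median gene of the elongation machinery stood at 49.9 ± 7.52 TPM (70.5 TPM with Eef2k counted among the regulators), the median initiation factor at 19.7 ± 3.38 TPM and the median binding protein or methyltransferase at 3.68 ± 0.348 TPM (SD over libraries, n = 3). These are bulk libraries, in which fewer cells of a type and less RNA per cell cannot be told apart.

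**Figure D1:**
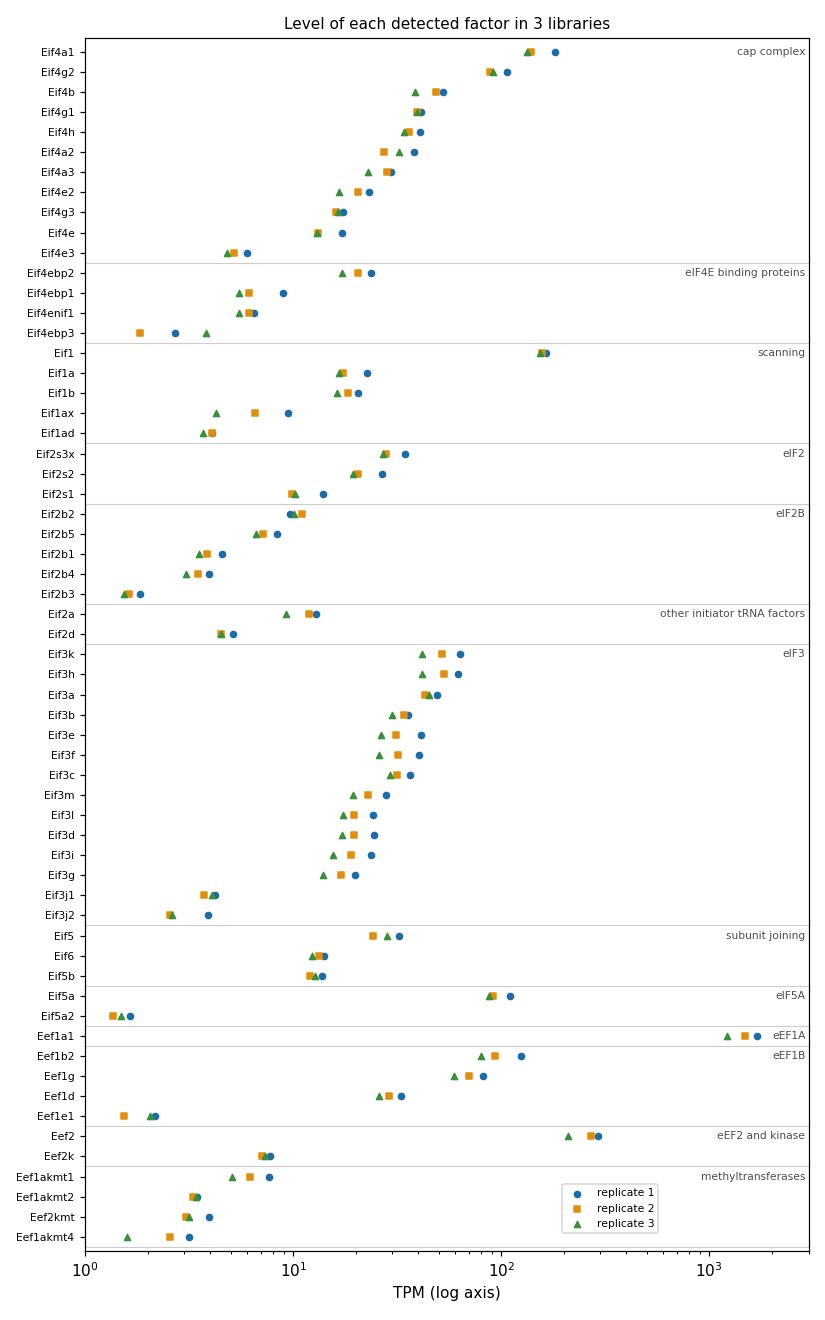
TPM of each of the 60 detected members on a log axis, ordered by role and by mean within a role, with one marker for each of replicates 1, 2 and 3. Eef1a1 stands alone at the right, at 1216 to 1702 TPM, and 20 members have a mean between 1 and 10 TPM.

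Eef1a1 (chromosome 9, 78478449 to 78489151, minus strand), which delivers aminoacyl-tRNA to the ribosome, had 1702, 1479 and 1216 TPM in replicates 1, 2 and 3, or 124260, 187661 and 205870 counts. At 1466 ± 243 TPM it ranked 14 among all genes with a protein-coding transcript. Its paralog Eef1a2 (chromosome 2, 181147653 to 181157014), the form known from neurons and muscle, had 0, 0 and 5 counts, so eEF1A mRNA here came almost wholly from Eef1a1. Eef2 (chromosome 10, 81176631 to 81182498), the translocase, had 292, 271 and 210 TPM and ranked 108. Eef1a1 was 5.84, 5.47 and 5.79 times the level of Eef2 in replicates 1, 2 and 3. This ratio varied little, at 5.70 ± 0.2001, although both levels were lowest in replicate 3. Eef2k, the kinase that inactivates eEF2, stood far lower at 7.70, 7.10 and 7.28 TPM.

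The nucleotide exchange complex eEF1B was below eEF1A at the mRNA level for each subunit. Eef1b2 (chromosome 1, 63176825 to 63180486), a catalytic subunit, had 125, 93.2 and 80.03 TPM. Eef1g, the scaffold subunit, had 82.1, 70.1 and 59.3 TPM, and Eef1d, the second catalytic subunit, had 33.1, 29.0 and 25.9 TPM. Eef1a1 stood 14.9 ± 1.14 times above Eef1b2, 20.8 ± 0.291 times above Eef1g and 49.8 ± 2.43 times above Eef1d. The 2 catalytic subunits were thus unequal in gene totals in every library, with an Eef1b2 to Eef1d ratio of 3.36 ± 0.358. Protein-coding transcripts held 52.9%, 50.7% and 55.2% of the Eef1b2 TPM, against 99.9%, 98.6% and 97.9% for Eef1d. On coding transcripts alone the gap between these subunits is therefore smaller, and that between Eef1a1 and Eef1b2 larger. Eef1e1, a partner that belongs to the multi-tRNA synthetase complex, had only 2.16, 1.54 and 2.04 TPM.

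Eif5a (chromosome 11, 69916714 to 69921958), the hypusine-containing factor that relieves stalled elongation and aids termination, had 110.3, 91.2 and 87.6 TPM. Eif5a2, its paralog, had 1.65, 1.36 and 1.48 TPM. Eif5a was 58.8 to 66.6 times as high, the widest gap among the 10 paralog pairs examined, and no level of Eif5a came near one of Eif5a2. A log2 ratio of 6.00 ± 0.10 on the log2(TPM + 0.01) scale summarises the pair, and it is 5.28 with 1 added in place of 0.01.

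The lysine methyltransferases of the elongation factors were at low levels, with a median of 3.22 ± 0.218 TPM over the 5 genes. Eef1akmt1, which acts on eEF1A, had 7.66, 6.23 and 5.06 TPM. Eef1akmt2, which also acts on eEF1A, had 3.46, 3.29 and 3.39 TPM, and Eef2kmt, which acts on eEF2, had 3.95, 3.04 and 3.15 TPM. The levels of Eef1akmt2 and Eef2kmt overlapped. Eef1akmt4, another eEF1A methyltransferase, had 3.14, 2.56 and 1.58 TPM. Eef1akmt3 had 0, 2 and 5 counts and was thus the one methyltransferase not detected at a TPM of 1.

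Within the cap-binding complex the helicase was the most abundant mRNA. Eif4a1 (chromosome 11, 69666936 to 69672423), the RNA helicase of eIF4F, had 182, 138 and 134 TPM, and its paralog Eif4a2 (chromosome 16, 23107444 to 23114136) had 38.1, 27.3 and 32.2 TPM. Eif4a1 was 4.15 to 5.07 times as high as Eif4a2. Eif4a3, the related helicase of the exon junction complex, had 29.6, 28.1 and 22.9 TPM, which overlapped the levels of Eif4a2. Of the helicase cofactors, Eif4b had 52.6, 48.5 and 38.4 TPM and Eif4h had 40.9, 36.2 and 34.2 TPM. Their ranges overlapped as well.

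The scaffold genes differed more from each other than they varied between libraries. Eif4g2 (chromosome 7, 111067750 to 111083030), whose protein lacks the eIF4E binding site, had 107, 88.6 and 91.5 TPM. Eif4g1, the scaffold that joins the cap-binding protein, the helicase and eIF3, had 41.1, 39.2 and 39.2 TPM, and its paralog Eif4g3 had 17.4, 16.02 and 16.3 TPM. The order Eif4g2, Eif4g1, Eif4g3 held in each library with no overlap, with Eif4g2 at 2.26 to 2.59 times Eif4g1 and Eif4g1 at 2.36 to 2.44 times Eif4g3.

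The cap-binding proteins themselves had lower mRNA levels. Eif4e (chromosome 3, 138526179 to 138559696), the cap-binding subunit of eIF4F, had 17.2, 13.2 and 13.0 TPM. Eif4e2, a cap-binding protein that does not bind eIF4G and acts in translational repression, had 23.0, 20.5 and 16.6 TPM. Eif4e2 was above Eif4e in each library, by a log2 ratio of 0.47 ± 0.15, but the ranges of the pair overlapped across libraries. Eif4e3, the third type of cap-binding protein, had 5.99, 5.19 and 4.79 TPM. The form known from oocytes, Eif4e1b, had 0 counts in every library. The helicase Eif4a1 was 10.5 ± 0.146 times as high as Eif4e and 3.79 ± 0.555 times as high as Eif4g1.

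Among the proteins that hold eIF4E away from eIF4G, which mTORC1 inactivates by phosphorylation, Eif4ebp2 was the most abundant mRNA at 23.6, 20.4 and 17.2 TPM. Eif4ebp1 had 8.95, 6.10 and 5.47 TPM, so that Eif4ebp2 was 2.63 to 3.35 times as high. Eif4ebp2 was also above Eif4e itself, by a factor of 1.42 ± 0.119. Eif4enif1, which carries eIF4E to the nucleus and to mRNA granules, had 6.45, 6.15 and 5.46 TPM. Eif4ebp3 had 2.69, 1.84 and 3.81 TPM, from 65.3, 82.0 and 222 counts. It is overlapped on the same strand by the gene AC115631.1, which held 527, 829 and 1016 counts, so its estimate depends on how shared reads were divided.

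For start codon selection, Eif1 (chromosome 11, 100319885 to 100322096), which keeps scanning complexes from starting at the wrong codon, had 164, 158 and 154 TPM. Its paralog Eif1b had 20.6, 18.3 and 16.3 TPM, and Eif1 was 7.97 to 9.45 times as high. Eif1a, which promotes scanning together with eIF1, had 22.6, 17.4 and 16.7 TPM. Eif1ax, the X-linked form, had 9.39, 6.55 and 4.27 TPM. Eif1a was above Eif1ax in each library by a log2 ratio of 1.55 ± 0.37, the widest spread among the pairs. The related Eif1ad had 4.09, 4.08 and 3.69 TPM.

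The subunits of eIF2, which brings the initiator tRNA, were unequal at the mRNA level. Eif2s3x, the GTP-binding gamma subunit, had 34.5, 27.8 and 26.9 TPM. Eif2s2, the beta subunit, had 26.7, 20.4 and 19.4 TPM, and Eif2s1 (chromosome 12, 78861819 to 78887010), the alpha subunit that stress kinases phosphorylate, had 13.8, 9.87 and 10.2 TPM. The gamma subunit was 2.65 ± 0.162 times and the beta subunit 1.96 ± 0.0918 times the alpha subunit, and every library had the same order.

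The exchange factor eIF2B had a median of 3.97 ± 0.517 TPM over its 5 subunits, against 22.2 ± 3.95 TPM for the 3 subunits of its substrate eIF2. Eif2b2, the beta subunit, had 9.64, 11.1 and 10.1 TPM, and Eif2b5, the catalytic epsilon subunit, had 8.34, 7.18 and 6.59 TPM. Eif2b1 (alpha) had 4.54, 3.84 and 3.53 TPM. Below it in each library were Eif2b4 (delta) at 3.93, 3.48 and 3.05 TPM and Eif2b3 (gamma) at 1.83, 1.63 and 1.53 TPM. In gene totals Eif2b2 thus stood 6.22 ± 0.831 times above Eif2b3, although the subunits assemble in equal numbers. Part of the Eif2b2 total was a short retained-intron transcript. The main coding transcripts were closer, at 6.71, 5.33 and 4.42 TPM for Eif2b2 and 1.69, 1.57 and 1.38 TPM for Eif2b3. Eif2a, a protein distinct from the eIF2 alpha subunit that can bind the initiator tRNA without GTP, had 12.9, 11.97 and 9.23 TPM. Eif2d, a factor for tRNA delivery and ribosome recycling, had 5.12, 4.49 and 4.51 TPM.

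All 14 genes of eIF3, the largest initiation factor and the platform that links the small subunit to eIF4G, were detected. Eif3k (chromosome 7, 28971372 to 28981864) had 63.1, 51.7 and 41.7 TPM, and Eif3h had 61.6, 53.1 and 41.5 TPM. The largest subunit, Eif3a (chromosome 19, 60761117 to 60790658), had 49.0, 43.2 and 45.2 TPM. These highest members overlapped in level.
Below them came Eif3b at 35.7, 34.0 and 29.7 TPM, the RNA-binding core subunit, and Eif3c at 36.4, 31.6 and 29.2 TPM, a core subunit that contacts eIF1. Eif3e had 41.1, 31.1 and 26.6 TPM, and Eif3f (chromosome 7, 108934417 to 108942951) had 40.1, 31.9 and 25.7 TPM. The ranges of these 4 members overlapped too, so their order is not resolved.
Eif3m had 27.9, 23.0 and 19.3 TPM and Eif3l had 24.3, 19.5 and 17.3 TPM, both of the shell of the complex that also holds the e, f, h and k subunits. Eif3d, a subunit that can itself bind caps, had 24.3, 19.6 and 17.1 TPM. Eif3i had 23.6, 19.0 and 15.5 TPM and Eif3g had 19.8, 17.0 and 13.8 TPM. These 5 subunits were below the b and c core subunits in each library.
Leaving out the loosely bound j subunit, the highest of 12 subunits was 3.18, 3.12 and 3.27 times the lowest in replicates 1, 2 and 3. The order of the 12 levels was similar between libraries, with Spearman coefficients across subunits of 0.930, 0.909 and 0.944 for replicates 1 and 2, 1 and 3, and 2 and 3, given as a description of subunits that share a library.
The j subunit was encoded by 2 near-identical genes. Eif3j1 had 4.21, 3.71 and 4.09 TPM and Eif3j2 had 3.88, 2.55 and 2.62 TPM by the deposited gene tables. In the kallisto-format tables the order turned round, with Eif3j1 at 1.19, 1.23 and 1.13 TPM and Eif3j2 at 2.66, 2.59 and 2.16 TPM, so which copy was higher is uncertain.

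**Figure D2:**
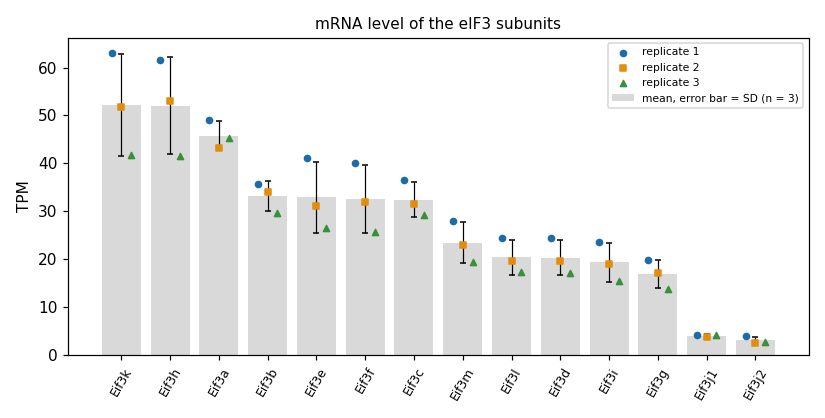
TPM of each eIF3 gene, with bars for the mean and error bars for the SD over 3 libraries, and one marker for each replicate. Eif3k, Eif3h and Eif3a have means of 45.8 to 52.2 TPM, and Eif3j1 and Eif3j2 of 4.003 and 3.02 TPM. The replicate 3 marker is the lowest for each of the b, c, d, e, f, g, h, i, k, l and m subunits, but not for Eif3a, Eif3j1 or Eif3j2.

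Of the factors for the last steps of initiation, Eif5 (chromosome 12, 111538016 to 111546752), which makes eIF2 hydrolyse its GTP, had 32.1, 24.3 and 28.3 TPM. Eif5b, the GTPase that joins the large subunit, had 13.7, 12.02 and 12.8 TPM. Eif6, which keeps the large subunit from joining too early, had 14.1, 13.4 and 12.3 TPM. Eif5b and Eif6 did not differ beyond their spread, and Eif5 was above both in every library.

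Gene levels do not show how much of the RNA is annotated as protein-coding. Over the 60 detected members, the median share of gene TPM on transcripts annotated as protein-coding was 98.6 ± 1.11% (SD over libraries, n = 3). It was 99.2% without replicate 3, against 98.2% without replicate 1 and 98.3% without replicate 2. For 40 members the mean share was at least 95%, and for 10 members it was below 80%. These counts were not computed over all detected genes, so they describe the members only. The lower set also depends on the estimate. In kallisto-format TPM, Eef2k, one of the 10, had 90.5%, 96.6% and 81.8%, and Eif2s1, not one of them, had 56.5%, 62.7% and 63.2%. Eif4a2 had the lowest share, with 31.3%, 18.4% and 19.7% in replicates 1, 2 and 3, against 42.9%, 37.8% and 28.5% in the kallisto-format tables. Retained-intron transcripts held 4.75%, 4.69% and 17.4% of the Eif4a2 TPM in replicates 1, 2 and 3. Its most abundant transcript, annotated for nonsense-mediated decay and 1737 bases long, had 14.0, 11.9 and 12.6 TPM. The next, also annotated for nonsense-mediated decay, had 6.93, 6.02 and 5.62 TPM, while the highest coding transcript had 4.42, 2.24 and 2.20 TPM. The coding share of its paralog Eif4a1 was 95.8%, 96.1% and 93.8%, so the pair differed more in coding transcripts than in gene totals.

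Eef1b2 also divided its TPM between annotations. A nonsense-mediated decay transcript of 691 bases had 51.8, 43.2 and 32.2 TPM, and a coding transcript of 681 bases had 48.4, 33.2 and 33.4 TPM. These are close in length, and the order between them changed in replicate 3. Eif2a had a coding share of 61.8%, 39.9% and 60.02%, against 87.4%, 83.3% and 84.0% in the kallisto-format tables, and on the opposite strand it is overlapped by Serp1, which held 11158, 13724 and 19115 counts. Eif5b went the other way, with 92.6%, 98.9% and 93.0% coding, against 50.9%, 50.6% and 45.2% in the kallisto-format tables. For these genes the share depends on the estimate.

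Short non-coding transcripts accounted for other low shares. Eif1 had a coding share of 59.8%, 58.4% and 51.2%, beside a processed transcript of 383 bases at 65.6, 65.4 and 74.8 TPM. Eif4a3 had 59.1%, 52.0% and 58.6%, beside a processed transcript of 466 bases. Eif1ax had 45.9%, 54.0% and 82.0%, beside a retained-intron transcript of 416 bases at 5.07, 3.01 and 0.77 TPM. The coding transcript of Eif1ax had 4.31, 3.53 and 3.50 TPM, so the larger difference in its gene TPM was in that short transcript. Eif2b2 had 69.6%, 49.9% and 44.1%, beside a retained-intron transcript of 338 bases at 2.74, 4.68 and 5.08 TPM. Its coding transcript had 6.71, 5.33 and 4.42 TPM, which is still above every other eIF2B subunit gene except Eif2b5. The remaining members below 80% were Eef1akmt2 at 57.9%, 56.5% and 64.0%, Eef2k at 78.3%, 73.0% and 69.0%, and Eif4ebp1 at 61.2%, 95.6% and 78.6%.

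**Figure D3:**
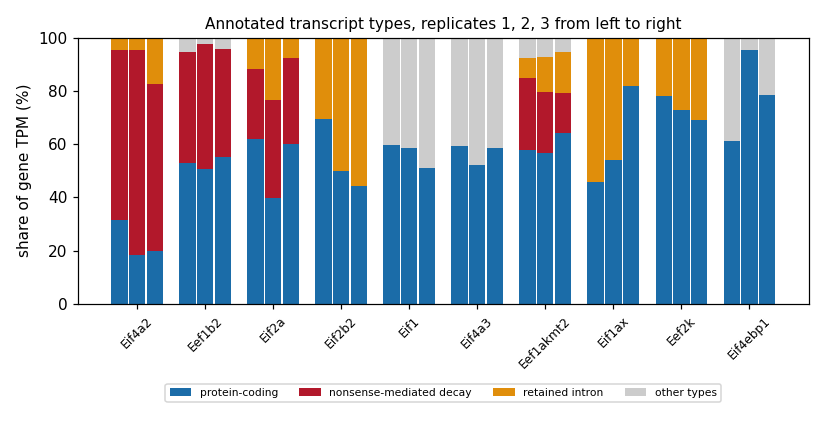
Share of each gene's TPM, in percent, on transcripts annotated as protein-coding, nonsense-mediated decay, retained intron or other types, for the 10 detected members with a mean protein-coding share below 80%. The bars of a gene stand for replicates 1, 2 and 3 from left to right, and the protein-coding part of Eif4a2 is 18.4% to 31.3%.

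The median spread of the members between libraries was near that of all genes with a protein-coding transcript, without matching for level. Over the 60 members past the edgeR filter on low counts, the median SD of log2 CPM after TMM scaling (a trimmed-mean correction for library composition) was 0.108, against 0.110 over 11215 genes with a protein-coding transcript. The median mean TPM was 18.4 over the 63 members, against 7.19 over detected genes with a protein-coding transcript. Genes of similar level were not compared, so the medians do not show whether the members vary as such genes do. Without replicate 3 the members' median SD was 0.0530. The members with the lowest SD were Eif2b3 (0.00785), Eif4g2 (0.0145) and Eef2k (0.0199).

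The members did not spread evenly about the libraries, since they tended to be lowest in replicate 3. Replicate 3 had the lowest value for 42 of the 60 members, against 37.6% of all genes with a protein-coding transcript past the filter. It had the highest value for 12 of 60, against 33.6% of those genes. Replicate 3 minus the mean of the other two was -0.13 in the median member, against -0.01 in the median gene with a protein-coding transcript and -0.35 in the median of 87 ribosomal protein genes. On the same scale replicate 1 was 0.06 and replicate 2 was 0.08 above the mean of the other two in the median member. With no test possible, the difference is described for these libraries only.

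The members on the TOP list were lowest in replicate 3 in 9 of 9 cases, with a median difference of -0.31 and a range of -0.38 to -0.16. Eif3f stood at -0.38, Eef1b2 and Eif3h at -0.35, Eef2 at -0.32 and Eef1a1 at -0.27. The other 51 members had a median of -0.11, and 33 of them were lowest in replicate 3. A split by annotated start covers a different set of members. The 10 members with a pyrimidine run within 5 bases of the start and the 36 without one that passed the filter both had a median of -0.11. Of the TOP list, Eef1d, Eef1g, Eif3e and Eif3h have no start window and are in neither group. Eef2, Eef1b2 and Eif4b are in the group without a run, so this split cannot be set beside that of the TOP list. Of the 2 members with a run at the exact start, Eif3f, on the list, stood at -0.38 and Eif2s3x, not on it, at -0.10. The TOP list was drawn up with earlier results of these libraries known, so it is no independent evidence of a direction. The 9 of 9 therefore depends on which members were listed.

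Within eIF3 the subunits separated in the same measure. The d, e, f, g, h, i, k, l and m subunits all had their lowest value in replicate 3, with differences of -0.38 to -0.24. Eif3c was lowest there too, by a smaller difference. In all, 10 of the 14 eIF3 genes were lowest in replicate 3, against 37.6% of all genes with a protein-coding transcript past the filter. Apart from the j subunit, the longest mRNAs of the complex are Eif3a, Eif3b and Eif3c, and these stood at 0.08, -0.06 and -0.08. The scaffolds Eif4g1, Eif4g2 and Eif4g3 were likewise near 0, at 0.03, -0.03 and 0.05.

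Transcript length moved with this difference. Across the 60 members the Spearman coefficient between the length of the most abundant protein-coding transcript and the difference of replicate 3 was 0.373, against 0.313 across all 11215 genes, given as a description of genes that share the same 3 libraries. The 28 members under 2000 bases had a median difference of -0.24 and 23 of them were lowest in replicate 3, while the 32 longer members had a median of -0.09 and 19 were lowest. In all genes the corresponding medians were -0.10 for 3465 shorter and 0.02 for 7750 longer genes. Lowest in replicate 3 were 1848 of the 3465 shorter and 2374 of the 7750 longer genes. The part of length in the result was not tested. Among the longer members, Eif3f, Eef2 and Eif4b of the TOP list have coding transcripts of 2514, 3089 and 3854 bases. They had differences of -0.38, -0.32 and -0.29. Eif4ebp2, which is not on the list, has one of 5784 bases and had a difference of -0.25.

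**Figure D4:**
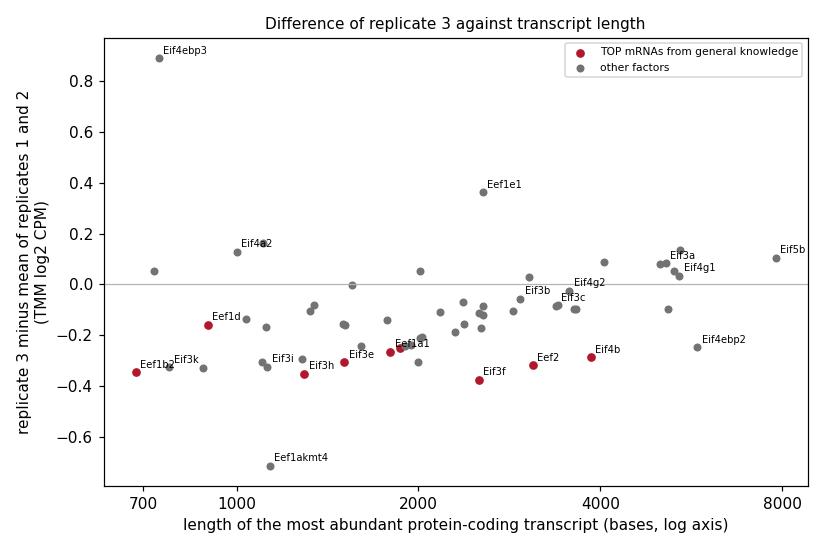
Difference of replicate 3 from the mean of replicates 1 and 2, in TMM log2 CPM, against the length of the most abundant protein-coding transcript on a log axis, one point for each of the 60 members past the filter. The 9 TOP-list members, in red, all lie below 0, between -0.38 and -0.16. That list was drawn up with earlier results of these libraries known.

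The members with the highest SD did not share one pattern. Eif4ebp3 (SD 0.53) was 0.89 higher in replicate 3 than in the other two, whereas Eef1akmt4 (SD 0.41) was 0.71 lower there, a difference of -0.71. Their counts were small, at 65.3 to 222 for Eif4ebp3 and 135, 199 and 161 for Eef1akmt4. Eef1akmt4 is overlapped on the opposite strand by Alg3, with 167, 245 and 381 counts. Eif3f (SD 0.22), Eef1e1 (SD 0.22) and Eef1b2 (SD 0.21) came next, and Eef1e1 was highest in replicate 3, by 0.36. Eif5b, Eif4a2 and Eif3j1 were also higher there, by 0.10, 0.13 and 0.14. In all, 11 members are overlapped by another gene with at least 100 counts in every library, 1 of them (Eif4ebp3) on the same strand. This count, too, is given for the members only.

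Neighbouring genes of the pathway were present alongside the factors. The share of all genes with a protein-coding transcript that passed the same TPM threshold was 41.2%. All 7 listed genes of the integrated stress response, which acts on eIF2 alpha, had a TPM of at least 1 in each library, with Atf4, the transcription factor whose translation rises when eIF2 is phosphorylated, highest at 22.6 ± 2.04 TPM and the kinase gene Eif2ak4 lowest at 2.86 ± 0.210 TPM. All 9 listed mTORC1 and TOP control genes were detected, the highest being Larp1, the TOP-binding repressor, at 16.1 ± 1.64 TPM and the lowest Mlst8, an mTOR subunit, at 2.47 ± 0.379 TPM. All 9 cap and tail partners were detected, led by the poly(A)-binding protein gene Pabpc1 at 182 ± 18.7 TPM, with the helicase gene Dhx29 lowest at 2.34 ± 0.182 TPM. Pabpc1 was thus above Eif4a1 in mean level, although their ranges overlapped.

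The 5 listed reinitiation, recycling and termination genes were all detected, from Denr at 7.72 ± 0.542 TPM to the release factor gene Etf1 at 22.05 ± 2.63 TPM. Of 8 enzymes that make hypusine on eIF5A or diphthamide on eEF2, 7 were detected, from Dph7 at 1.503 ± 0.359 TPM to Dhps, the first enzyme of hypusine synthesis, at 8.77 ± 1.79 TPM. The enzyme gene below the detection level was Dph2, at 1.38, 0.97 and 0.96 TPM. The 6 mitochondrial initiation and elongation factor genes were detected, from Tsfm at 2.76 ± 0.320 TPM to Tufm, the mitochondrial counterpart of eEF1A, at 10.9 ± 1.73 TPM. The selenocysteine elongation factor gene Eefsec had 2.07, 1.94 and 1.63 TPM. In replicate 3 the lowest value of the 3 libraries was seen for 3 of 7 stress response genes, 2 of 9 mTORC1 and TOP control genes, 6 of 9 cap and tail partners, 3 of 5 reinitiation, recycling and termination genes, 2 of 8 hypusine and diphthamide enzymes, 2 of 6 mitochondrial factors, and neither Eefsec nor any of the 8 macrophage markers, against 37.6% of all genes with a protein-coding transcript past the filter. With lists this short, these counts are given as values only.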

How the data were processed

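Per the file headers, each library has a gene table and a transcript table with the columns RSEM writes, and a second transcript table with those of kallisto, with no tool version stated. Values refer to mm10 and GENCODE M21, per the deposited notes. The authors deposited expected counts (estimated reads per gene, not always whole), TPM and FPKM, per the file headers. Members were found by symbol and transcript type. The members, role lists, TOP list and named-gene rule were chosen with earlier results of these data known. The rule gives every library's value for the 3 highest members of each role, paralog pairs, eIF3 subunits, the 5 members with the highest SD and undetected members; other members were added. Levels are TPM as deposited, mean ± SD (n = 3); detection means TPM of at least 1 in all libraries. Expected counts were rounded to whole numbers and scaled with edgeR 4.0.16 (TMM factors 1.04, 0.992 and 0.971; filterByExpr, intercept only; prior count 2), with DESeq2 1.42.0 size factors, total counts, no filter, log2(TPM + 1), posterior mean and kallisto-format TPM as alternatives. Kallisto-format gene levels are sums over transcripts. Log2 ratios added 0.01 TPM. The difference of each library from the other two was checked on simulated data with known folds. The simulated shifts were balanced up and down and had no link to length. Small shifts mostly in the same direction, like those above, are not covered by that check. Counts of 37 members were whole within 0.005 in every library and 26 had fractional counts. Strandedness is not stated, so overlapping genes cannot be told apart. Intervals and floors cover counting error only. Positions are GENCODE M21 on mm10; start windows are RefSeq on GRCm38.p6.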

Additional observations from a re-analysis of the deposited data

How the results depend on the processing

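No paired analysis was possible because there is 1 group. Kallisto-format TPM was a median of 0.445 times the gene-table TPM over detected genes with a protein-coding transcript (0.438 times in the members), so the medians became 21.4 for elongation, 8.72 for initiation and 1.78 for regulators, and 55 members kept a TPM of 1; over detected members alone the medians were 70.5 for elongation and 4.78 for regulators, the same values as with Eef2k counted among the regulators, a setting chosen after seeing the data. Log2 ratios in kallisto-format TPM became 1.40 (Eif4g2/Eif4g1), 1.23 (Eif4g1/Eif4g3), 0.20 (Eif4e2/Eif4e), 1.84 (Eif4e/Eif4e3) and 3.25 (Eif1/Eif1b), and Eif3j1/Eif3j2 reversed to -1.05, against 0.43 in the gene tables; the cause was not tested. Adding 1 gave 1.22 for Eif4g1/Eif4g3, 1.28 for Eif4e/Eif4e3 and 5.28 for Eif5a/Eif5a2. The share without Eef1a1 was 0.746%. The median SD with each library left out was 0.0530 to 0.131, lowest without replicate 3. On log2(TPM + 1), where the median of all genes with a protein-coding transcript lay at 0.18, -0.09 and -0.08 in replicates 1, 2 and 3, the members' median was 0.27 in replicate 1 and -0.0395 in replicate 2, or above that median in both. The TOP list alone gave -0.31 in replicate 3; that split was chosen after seeing the data. Members with a run within 5 bases numbered 10, or 6 with at least 7 pyrimidines, added after seeing the data. The other 107 recomputed values of the main summaries moved by less than their spread or 1.5 times. Among recomputed medians of single roles, 63 stayed within that margin and 15 moved beyond it. The eIF2B median of 3.97 became 4.74 on posterior mean TPM. Eef1a2, Eef1akmt3 and Eif4e1b had at most 5 counts.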

Other observations

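Of the 10 annotated genes named like a member but carrying "-ps", which were left out of the members, Eif4a-ps4 held 108, 674 and 817 counts in replicates 1, 2 and 3, or 2.30, 7.96 and 7.41 TPM. Replicate 1 was below the other two. Eif3s6-ps2 came next with 1.01, 4.02 and 10.1 counts, and each of the others held at most 1.03 counts. The 10 genes together held 110, 680 and 832 counts, against 331608, 510915 and 587402 counts of the members, and with them added the mean share of gene counts was 1.175%, against 1.174% for the members alone.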
